A study of Capra hircus with 10 samples.

Results

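The miRNA described here are those whose number is 2000 or higher (miR-2284, miR-3431, miR-6119 and the like), taken from small RNA libraries of the lactating goat mammary gland. They were chosen by name alone: of the 1804 miRNA counted, 539 carried a known name and 1265 were predicted on a goat chromosome or scaffold, and 60 of the known names held a number of 2000 or more. No name fell between miR-1842 and miR-2284, so a slightly different limit would have selected the same miRNA. The names of 25 carried the goat prefix (chi) and those of 20 the cattle prefix (bta), 2 were sheep names (oar), and 13 came from human, macaque, mouse, rat, pig, horse or chicken. The species prefix is left out below, except for bta-miR-2284b and chi-miR-2284b, which are different sequences.

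The libraries came from 10 Alpine goats in early lactation (day 48 ± 2 after kidding, when milk yield is near its peak), 1 library per goat. Every goat received a hay-based diet with concentrate for 2 weeks and was milked throughout. During the last 48 h before slaughter, 4 goats ate this diet ad libitum (Control) and 6 were food deprived (FD), with water available to all. RNA came from whole tissue, so that fewer cells of a type and less RNA per cell cannot be told apart.

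A miRNA is cut from a hairpin precursor, whose 5p and 3p strands can each be loaded into an Argonaute protein. Bases 2 to 8 of the mature strand, the seed, pair with target mRNA and largely determine which messengers are repressed. Numbers were given in order of discovery, so high numbers mark miRNA found late, many of them in cattle, sheep and goat and in few other mammals. The miR-2284 and miR-2285 names form a large ruminant family with many near-identical genomic copies.

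The 5 most abundant are shown first, since they held most of the counts, followed by miR-3963, whose unadjusted p was under 0.05. Sequences are those of the deposited tables, 5′ to 3′, as DNA letters with the seed in capitals.
miR-6119-5p: aGAGGTAAaaaattgatttgact
miR-2284y: aAAAGTTCgttcgggtttttc
miR-3431-5p: cCTCAGTCagccttgtggatgt
miR-3431-3p: aTCTAGAGgactgactgaaatt
miR-4334-3p: tCCCTGTCctccaggagctc
miR-3963: tGTATCCCacttctgacac

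These 6 had 6 different seeds, and no seed among the 60 was found in a known miRNA outside them. The closest well-known relative by seed, picked after the sequences were seen, was let-7, a family of abundant miRNA linked to cell differentiation. The first 6 of the 7 seed bases of miR-6119-5p were those of let-7, as the capitals show.
miR-6119-5p: aGAGGTAAaaaattgatttgact
let-7a-5p: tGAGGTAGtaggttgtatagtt
let-7d-5p: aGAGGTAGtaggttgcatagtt
Counted from 1 at the 5′ end, the substitution at the last seed base was A8G from miR-6119-5p to each of the 8 let-7 5p strands in the tables.

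The miR-2284 and miR-2285 family is shown next because its members and predicted relatives share seeds. It held 15 of the 60 miRNA and 11 seeds. The seed AAAGTTC was in 2 of them, AAAAGTT in 3 and AAACCTG in 2, and these were the only seeds that 2 or more of the 60 miRNA shared.
miR-2284y: aAAAGTTCgttcgggtttttc
bta-miR-2284b: aAAAGTTCgtttggttttttc
miR-2284ab: tAAAAGTTtggttgggttttt
miR-2284a: tAAAAGTTcgttggggttttt
miR-2284j: gAAAAGTTcgttcaggtttt
miR-2285f: aAAACCTGaatgaactttttgg
miR-2284d: gAAACCTGaacaaactttttgg
miR-2285o: aAACCCGAacgaacttttgg
miR-2285u: gAAAAACCcgaacgaacttt
All 6 miR-2285 miRNA were 3p strands, and of the 9 miR-2284 miRNA 6 were 5p strands and 3 (miR-2284c, miR-2284d and miR-2284e) were 3p strands. The 5p strands held 34219 of the family's counts and the 3p strands 5810. In antiparallel alignment, 20 bases of miR-2284y were complementary to the 20 bases of miR-2285u, and 1 of the predicted hairpins that hold miR-2284y (CHIR_1.0 chr21:56915158-56915218, plus strand) overlapped the hairpin of miR-2285u (chr21:56915153-56915212, minus strand). The family was poor in G and C (median 33.3%, against 45.5% in the other 45 high-numbered miRNA and 47.4% in the 479 other known miRNA), and 9 of 15 began with A.

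The 60 miRNA together held 267752 counts, 0.394% of all miRNA counts of the series, whose library totals ran from 4495512 to 9842009. Between 48 and 53 of them had at least 1 count in a given library, and 39 had a count in every library. The counts were concentrated: miR-6119-5p alone held 62.0% of them, miR-2284y 12.5%, miR-3431-5p 5.41%, miR-3431-3p 4.67% and miR-4334-3p 4.44%. Their place among all 539 known miRNA, by mean normalized count, was 38, 82, 109, 114 and 117.

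The filter for testing kept miRNA whose highest normalized count (count divided by the size factor of its library) was above 28, and 27 of the 60 passed, against 490 of all 1804. Just inside were miR-6123 and miR-2411-5p, whose highest normalized counts were 28.2 and 32.0, and just outside were miR-2284d at 26.9 and miR-2318 at 17.1. The 33 miRNA below the filter held from 1 to 191 counts over all libraries, and 13 of them held 10 or fewer. The lowest, with 1 count each, were miR-2426, miR-3955-3p and miR-3064-5p. The filter was passed in FD libraries alone by 2 of the 27, miR-2483-5p and miR-6123, and in Control libraries alone by 0, so the direction of these 2 is partly set by the filter. Of the 27 tested, 5 had a mean above 1000 normalized counts, 9 a mean between 100 and 1000, and 13 a mean of 100 or less.

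**Figure D1:**
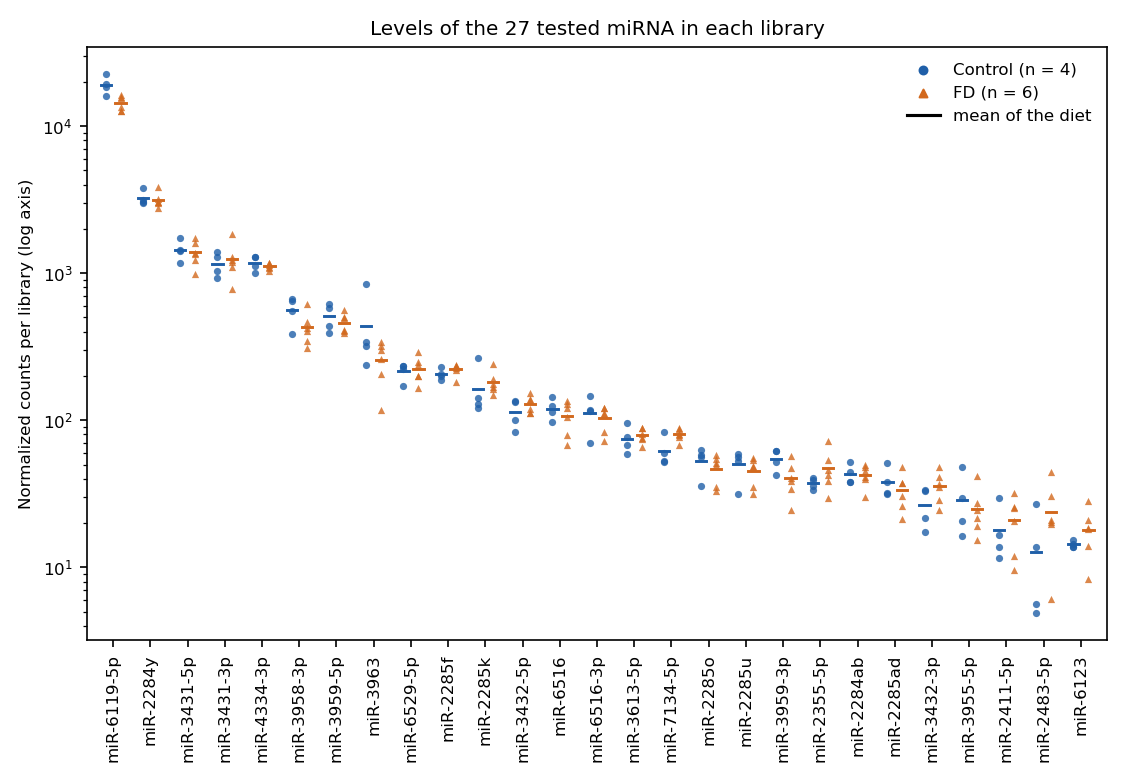
Normalized counts (vertical log axis) of the 27 tested high-numbered miRNA, ordered by mean; each point is 1 library (circles Control, triangles FD) and each short line the mean of a diet. miR-6119-5p stands apart at 12671 to 22602, the other 26 lie at 3826 or lower, and the points of both diets overlap for every miRNA.

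None of the 27 passed the test between diets. With the quasi-likelihood test of edgeR, adjusted by Benjamini-Hochberg over all 490 miRNA, 0 of 27 had an adjusted p under 0.1, as had 0 of 490 (0%). An unadjusted p under 0.05 was found for 2 of 27, against 77 of 490 (15.7%). Both, miR-6119-5p and miR-3963, were lower in FD, a direction found with such a p in 8.16% of all tested, and 0 of 27 were higher with such a p, against 7.55% of all tested. Log2 fold changes (FD over Control) were above 0 for 12 and below 0 for 15, with a median of -0.06, against 245 above and 245 below with a median of -0.00041 over all tested. The ranges of the diets overlapped for each of the 27, and did not overlap for 11 of 490 (2.24%). DESeq2, run as an alternative, gave an adjusted p under 0.1 to 26 of 490 (5.31%) and to 1 of the 27, miR-6119-5p. Limma-voom gave it to 0 of 490.

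**Figure D2:**
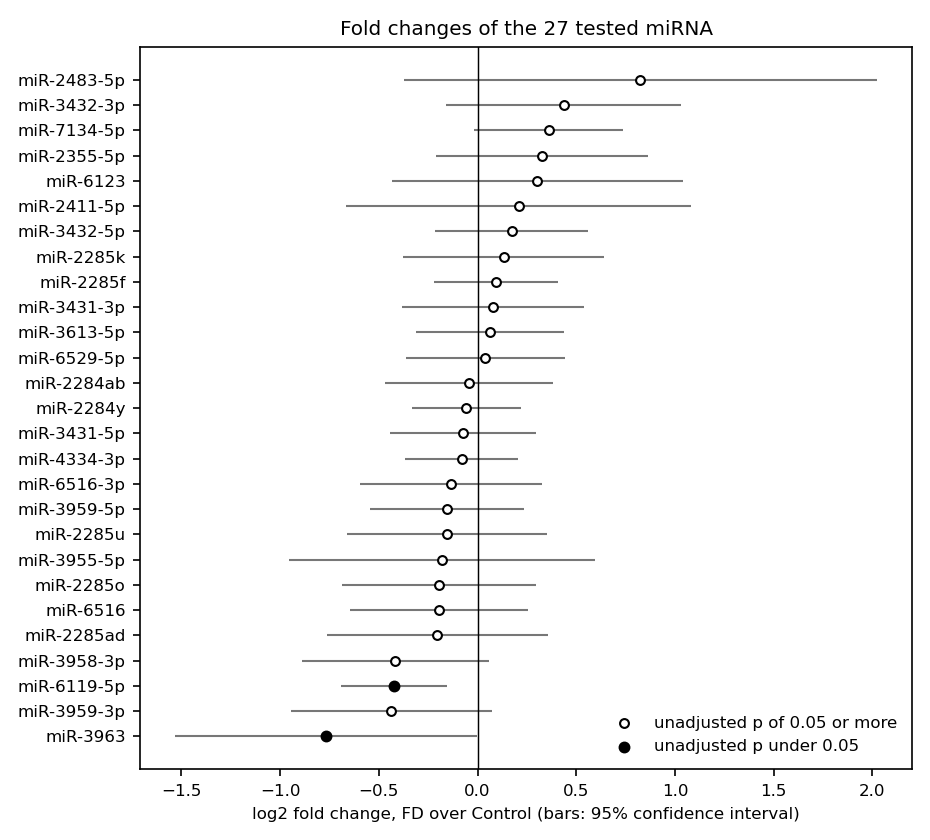
For each of the 27 tested miRNA, the log2 fold change of FD over Control (horizontal axis) with 95% confidence intervals as bars; filled points had an unadjusted p under 0.05. Of the 27 intervals, 25 include 0, and the 2 that do not belong to miR-6119-5p and miR-3963.

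The precision differed with abundance. For 22 of the 27, the 95% confidence interval lay within a 2-fold change in either direction, so that a larger change lay outside it. The exceptions were miR-3963 and 4 miRNA with means under 33 normalized counts (miR-3432-3p, miR-2483-5p, miR-2411-5p and miR-6123). The median coefficient of variation was 21.5% in Control and 21.4% in FD libraries for the 27 miRNA, and 22.4% and 23.3% for all 490.

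miR-6119-5p had the smallest p of the 27. Its precursor was predicted on CHIR_1.0 at chrX:23686578-23686640, minus strand, with a miRDeep2 score of 85130.9 (the log-odds of a hairpin processed as a miRNA precursor against background). Normalized counts, given here and below in the order of replicates 1 to 4 and 1 to 6, were 16076, 18436, 19216 and 22602 in Control and 16226, 13409, 15606, 12687, 12671 and 15778 in FD libraries. Thus 5 FD libraries of 6 lay below all Control libraries, which held for 16 of 490 miRNA (3.27%), and FD replicate 1 was above Control replicate 1. The means were 19082 ± 2700 (SD, n = 4) and 14396 ± 1649 (SD, n = 6), and the log2 fold change was -0.42 (SE 0.124, adjusted p = 0.195 from edgeR after Benjamini-Hochberg adjustment, unadjusted p = 0.00492). DESeq2 gave -0.39 with an adjusted p of 0.0907, and over all alternatives the adjusted p ran from 0.0907 to 0.421 while the log2 fold change stayed between -0.51 and -0.38. The other strand, chrX_39871-3p, was rare, with 423 counts against 165991. Its log2 fold change was -0.34 (SE 0.217, adjusted p = 0.457 in the same edgeR test).

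The share of all counts that went to high-numbered miRNA moved with this 1 miRNA. In Control libraries the share was 0.425%, 0.431%, 0.466% and 0.450%, and in FD libraries 0.399%, 0.349%, 0.370%, 0.349%, 0.360% and 0.397%. Every FD library was below every Control library, with means of 0.443% ± 0.0188 (SD, n = 4) and 0.371% ± 0.0228 (SD, n = 6). By itself miR-6119-5p held 0.254% of the counts in Control replicate 1 and 0.251% in FD replicate 1. In normalized counts this order was reversed (16076 and 16226), so the separation of miR-6119-5p by diet depends on the scaling. Without miR-6119-5p the shares were 0.154% ± 0.0157 and 0.149% ± 0.00975, and overlapped. The share of the miR-2284 and miR-2285 miRNA was 0.0584% ± 0.00262 in Control and 0.0583% ± 0.00622 in FD libraries. No test was run on these shares.

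**Figure D3:**
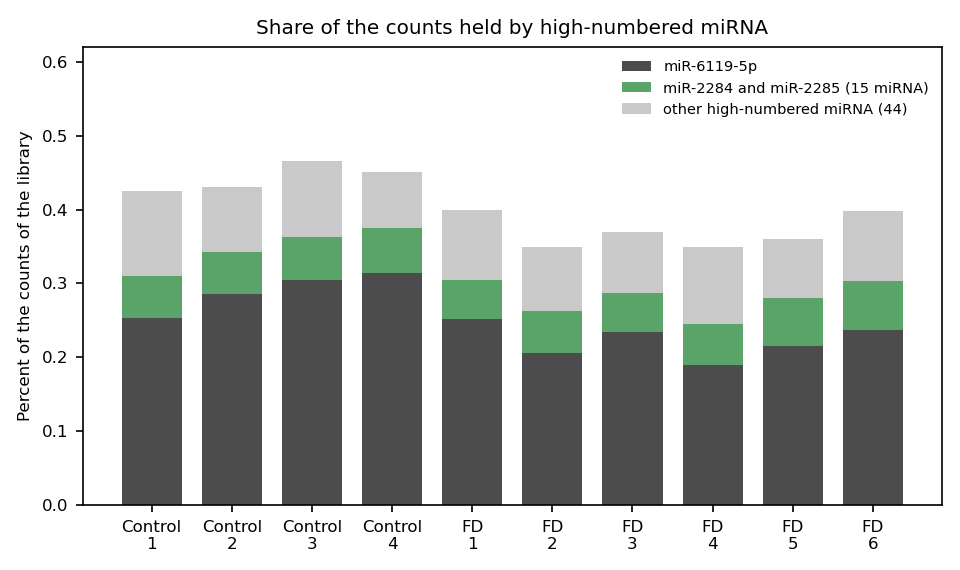
Percent of the counts of each library (vertical axis, from 0) held by miR-6119-5p, by the 15 miR-2284 and miR-2285 miRNA and by the other 44 high-numbered miRNA, stacked, for 4 Control and 6 FD libraries. The stacks reach 0.425% to 0.466% in Control and 0.349% to 0.399% in FD libraries, and the lowest segment, miR-6119-5p, is shorter in each of the 6 FD libraries than in any Control library, by little for FD replicate 1 against Control replicate 1.

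Cell makeup was followed by miRNA known for single cell types. The 2 myeloid miRNA (miR-223 strands, of which miR-223-3p was the most abundant) summed to 262 ± 111 normalized counts in Control goats (SD, n = 4) against 586 ± 243 in FD goats (SD, n = 6). The 11 epithelial miRNA of the miR-200 family and miR-205, led by miR-141, summed to 231599 ± 10133 and 212725 ± 25474. The sums were 133853 ± 12350 and 168383 ± 23642 for the 2 endothelial miR-126 strands, led by miR-126-5p, and 5075 ± 1034 and 7004 ± 1018 for the 4 erythroid miRNA, led by miR-451-5p, again in Control and FD libraries. Both myeloid miRNA tested had an unadjusted p under 0.05 and were higher in FD, as did both endothelial miR-126 strands and 1 of 3 erythroid miRNA tested, while 2 of 10 epithelial miRNA had one and were lower, beside the 15.7% of all tested that had one. The 7 stromal miRNA, led by miR-143-3p, had none, and summed to 754457 ± 115282 in Control and 821442 ± 192153 in FD libraries. Of the 2 myeloid names listed only miR-223 was found among the counts, and of the 3 erythroid names only miR-144 and miR-451. No marker found was at 0 over the series or passed the adjusted threshold. The part of cell makeup in the difference of miR-6119-5p was not tested.

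miR-3963, a miRNA named in mouse, had the lowest log2 fold change of the 27 and rested on 1 library. Its sequence was placed on a predicted hairpin of CHIR_1.0, chr20:52711025-52711071, plus strand, with a score of 4.0. The prediction gave 0 pooled reads of the opposite strand, and the library counts held 1 (chr20_27831-5p). Normalized counts were 843, 340, 322 and 238 in Control and 340, 302, 321, 263, 117 and 207 in FD libraries. Control replicate 1 lay far above the others, and the other 3 Control libraries fell within the FD range. The log2 fold change was -0.77 (SE 0.352, adjusted p = 0.313 from edgeR after Benjamini-Hochberg adjustment), and -0.25 (adjusted p = 0.699) without Control replicate 1.

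miR-2284y was the second most abundant, and its level was nearly the same under both diets. Normalized counts were 2977, 3132, 3066 and 3775 in Control and 2768, 3041, 3000, 3029, 3208 and 3826 in FD libraries. The ranges overlapped almost wholly. The log2 fold change was -0.06 with a 95% confidence interval of -0.33 to 0.22. Its sequence occurred whole in 4 predicted hairpins, on chromosomes 10, 20 and 21 and on 1 unplaced scaffold. The hairpins on chromosome 10 (CHIR_1.0 chr10:3916357-3916416, minus strand) and on the scaffold had the same score (37673.6) and the same pooled read numbers, 66423 for one strand and 7463 for the other, so that reads of this miRNA cannot be assigned to 1 locus.

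No other tested family member passed the test either. Of the 15 miRNA 7 were tested, 2 had a log2 fold change above 0 and 5 below, from -0.20 (miR-2285ad) to 0.13 (miR-2285k), with a median of -0.06, and none had an unadjusted p under 0.05. Counts of the 15 added together gave a log2 fold change of -0.07. miR-2285o and miR-2285u, printed above, overlap over 17 identical bases, and their counts differed by 0 to 4 reads in every library (42 and 41 in Control replicate 1, 72 and 70 in FD replicate 4). The 2 names are therefore not independent measurements. The other tested family members were miR-2285f, with a mean of 216 normalized counts and a log2 fold change of 0.09, and miR-2284ab, with a mean of 42.6 and a log2 fold change of -0.04. miR-2285k had a mean of 174, and its log2 fold change was 0.41 without Control replicate 4, whose 263 normalized counts stood above the 120 to 141 of Control replicates 1 to 3. Without FD replicate 5 it was -0.0325. miR-2285ad had a mean of 35.3, and its value was -0.34 without FD replicate 1 and -0.07 without Control replicate 4.

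Around these named miRNA lay a larger group of predicted ones. Of the 1265 predicted miRNA, 226 matched a miR-2284 or miR-2285 sequence over at least 16 bases without gaps and with at most 3 mismatches, 113 on each strand. They held 0.123% of the counts of the series, more than the 0.0589% of the family's 15 known names. The 5 most abundant are shown to set them beside the family sequences above.
chr8_12248-5p: tGAAAAGTtcgttctggttttt
chr21_29330-5p: tAAAGTTCatttgggtttttct
chr10_15053-3p: aAACACGAacaaacttttcggc
chr3_4386-5p: aTAGTTCAttcaggtttttctg
chr27_34538-5p: aAAGTTCAttcaggtttttctg
The seed AAAGTTC of miR-2284y recurred in 17 predicted miRNA, AAAAGTT in 22 and AAACCTG in 11. Of the 226, 50 passed the filter, 25 with a log2 fold change above 0 and 25 below, with a median of 0.004. These counts may hold the same reads more than once, which was not checked in the reads. Of the 50, 10 formed 2 groups, of 8 and 2, whose normalized counts lay within 10% of each other in every library. The sums of the 8 ran from 406 to 426 counts. With each group counted once, an alternative chosen after the data were seen, 42 remained, 20 above 0 and 22 below with a median of -0.02, and the share of the counts of the series was 0.114%. EdgeR's test called 0 of the 50 and gave 5 an unadjusted p under 0.05, beside the 15.7% of all tested. DESeq2 called 5 of the 50, beside 5.31% of all tested, and of these chr3_4386-5p and chr27_34538-5p were near-equal in every library and chr3_4386-3p came from the same hairpin. The share of counts held by the 226 was 0.125% ± 0.0152 in Control goats (SD, n = 4) against 0.120% ± 0.0108 in FD goats (SD, n = 6).

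Among the 5, chr8_12248-5p, at 2528 ± 219 normalized counts in Control goats (SD, n = 4) against 2470 ± 410 in FD goats (SD, n = 6), had a log2 fold change of -0.05. chr10_15053-3p, the other strand of the miR-2284y hairpin, was at 614 ± 69.1 and 721 ± 70.2, with a log2 fold change of 0.22 (SE 0.138, adjusted p = 0.453 by edgeR). chr3_4386-5p and chr27_34538-5p, whose sequences are alike from the third base on, had nearly equal values in every library, so their changes of -0.90 (SE 0.291) and -0.89 (SE 0.293) are 1 observation. Their adjusted p was 0.195 in edgeR's test. The value of chr3_4386-5p in Control replicate 4 was 684, and those of the other 3 Control libraries were 326 to 339. For each of the 2, 5 FD libraries of 6 lay below all Control libraries, which held for 3.27% of all tested. FD replicate 1 did not, at 365 for chr3_4386-5p. The other strand of that hairpin, chr3_4386-3p, also had 5 FD libraries below all Control libraries. It was at 253 ± 54.8 and 152 ± 32.4, with a log2 fold change of -0.75 (SE 0.204, adjusted p = 0.195 by edgeR).

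chr21_29330-5p behaved unlike the other 4, and its pattern was noticed after the values were seen. It was abundant in 9 libraries and almost absent from Control replicate 1, where it had 2 counts. The rarer chr10_14966-5p, whose 20 bases are the first 20 of chr21_29330-5p, had 1 count there and 28 to 102 in the other libraries. A further predicted miRNA with the seed of miR-2284y, C66881290_38854-5p, differed from it at 1 base, T18C counted from the 5′ end (shown in capitals).
chr21_29330-5p: taaagttcatttgggttTttct
C66881290_38854-5p: taaagttcatttgggttCttct
Counts of the form with T were 2, 626, 1244 and 1851 in Control and 782, 1208, 1115, 734, 1104 and 1822 in FD libraries. Counts of the form with C were 1360, 948, 2 and 2 in Control and 962, 4, 1, 987, 3 and 5 in FD libraries. The goats thus fell into 3 kinds that crossed the diets: 1 with almost only C, 3 with both forms and 6 with almost only T.

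In the goats with both forms, C made up 60.2% of the 2 forms in Control replicate 2 (95% Wilson confidence interval 57.8% to 62.6%), 55.2% in FD replicate 1 (52.8% to 57.5%) and 57.4% in FD replicate 4 (55.0% to 59.7%). The intervals cover counting error only. In the other libraries C made up 99.9% in Control replicate 1, and between 0.0896% and 0.330% in the remaining 6. The 2 forms together gave 1738 ± 142 normalized counts in Control goats (SD, n = 4) against 1318 ± 407 in FD goats (SD, n = 6), from 662 in FD replicate 5 to 1883 in Control replicate 1. Their separate log2 fold changes were -0.05 (SE 0.819) for T and -1.23 (SE 1.73) for C, against a median SE of 0.213 among the 27 tested miRNA. The hairpin of the T form was predicted on CHIR_1.0 at chr21:52973042-52973098, minus strand, and that of the C form on an unplaced scaffold.

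**Figure D4:**
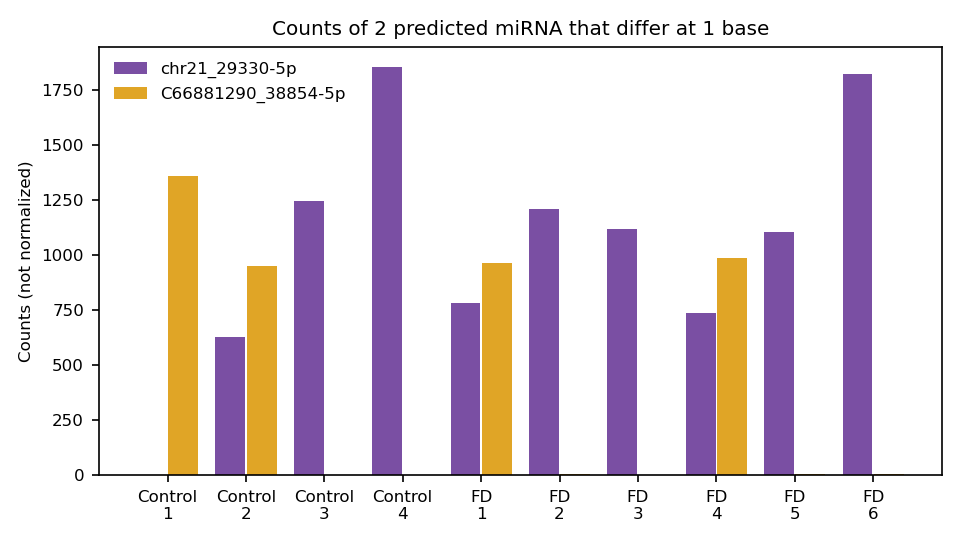
Counts (vertical axis, not normalized) of the predicted miRNA chr21_29330-5p and C66881290_38854-5p, which differ at 1 base, in 4 Control and 6 FD libraries. Control replicate 1 holds almost only the second, Control replicate 2 and FD replicates 1 and 4 hold both, and the other 6 libraries hold almost only the first.

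The precursors with both strands measured gave a readout that does not depend on the scaling of the libraries. Both strands were among the 60 miRNA for 11 precursors, and both strands were tested for mir-3431, mir-3959, mir-3432 and mir-6516.
miR-3959-5p: gGTTGATCagagaacatacatt
miR-3959-3p: tGTATGTCaactgatccacagt
miR-3432-5p: tGCGGGATctttagttgtggcg
miR-3432-3p: cAGCAACTaaagatccctcagg
miR-6516: tTTGCAGTaacaggtgtgaac
miR-6516-3p: aTCATGTAtgatactgcaaaca
The strands of mir-3431 and mir-6516 were used about equally, and mir-3959 and mir-3432 mostly gave their 5p strand.

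For mir-3431, the 5p strand made up 55.5% ± 2.30 of the counts of both strands in Control goats (SD, n = 4) against 53.1% ± 2.71 in FD goats (SD, n = 6). Normalized counts of miR-3431-5p were 1735, 1174, 1423 and 1435 in Control and 1374, 1350, 1225, 1744, 993 and 1615 in FD libraries. Those of miR-3431-3p were 1393, 933, 1284 and 1031 in Control and 1228, 1199, 1096, 1859, 786 and 1282 in FD libraries. FD replicate 4 was highest and FD replicate 5 lowest for both strands, so the FD range enclosed all Control values. The log2 fold changes were -0.08 (SE 0.170) and 0.08 (SE 0.212), with adjusted p of 0.842 and 0.858 in edgeR's test.

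mir-6516, whose 5p strand carries a cattle and whose 3p strand a human name, gave 52.3% ± 5.29 of its counts from the 5p strand in Control goats (SD, n = 4) against 50.4% ± 3.20 in FD goats (SD, n = 6). Normalized counts of miR-6516 were 113, 144, 96.6 and 126 in Control and 121, 130, 78.8, 135, 68.2 and 106 in FD libraries. Those of miR-6516-3p were 115, 117, 70.0 and 146 in Control and 122, 112, 83.5, 110, 71.8 and 121 in FD libraries. Both strands were low in FD replicates 3 and 5 and in Control replicate 3, and the diets overlapped. The log2 fold changes were -0.20 (SE 0.208) and -0.13 (SE 0.213).

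For mir-3432, which lies within HIP1 (a gene of endocytosis) in the RefSeq annotation of the goat assembly ARS1.2, the 5p strand made up 81.4% ± 1.50 in Control goats (SD, n = 4) against 78.4% ± 2.77 in FD goats (SD, n = 6). Normalized counts of miR-3432-5p were 135, 101, 133 and 83.5 in Control and 118, 154, 137, 113, 140 and 111 in FD libraries. Those of miR-3432-3p were 33.2, 21.6, 33.6 and 17.3 in Control and 35.2, 41.3, 48.2, 24.4, 37.1 and 28.9 in FD libraries. For the 3p strand, 4 FD libraries of 6 lay above all Control libraries, while FD replicates 4 and 6 lay within the Control range. The log2 fold changes were 0.17 (SE 0.178) and 0.44 (SE 0.274), with adjusted p of 0.618 and 0.447 in edgeR's test. Without Control replicate 4, the lowest for both strands, they were 0.0053 and 0.22.

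The last of these 4 precursors, mir-3959, belongs to the large imprinted miRNA cluster of chromosome 21, where miRNA are expressed from the maternal chromosome. In the ARS1.2 annotation MIR3955 lies next to MIR379 and within LOC106503398, a long noncoding RNA gene. MIR3958 lies between MIR495 and MIR376E, and MIR3959 lies between MIR655 and MIR487A. All 25 genes listed from MIR3955 to MIR3959 were miRNA genes. Normalized counts of miR-3959-5p were 621, 441, 578 and 392 in Control and 505, 412, 404, 559, 391 and 499 in FD libraries. Those of miR-3959-3p were 62.2, 52.0, 61.6 and 42.2 in Control and 24.5, 40.3, 34.1, 47.2, 38.9 and 56.9 in FD libraries. For the 3p strand, 4 FD libraries of 6 lay below all Control libraries, and the ranges of the 5p strand overlapped. The 5p strand made up 90.2% ± 0.599 of the counts of both strands in Control goats (SD, n = 4) against 91.9% ± 1.91 in FD goats (SD, n = 6), and 5 FD libraries of 6 lay above all Control libraries for this share.

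The log2 fold changes were -0.15 (SE 0.180, adjusted p = 0.649) for miR-3959-5p and -0.44 (SE 0.234, adjusted p = 0.397) for miR-3959-3p in edgeR's test. The value of miR-3959-5p was -0.06 without Control replicate 1 and -0.30 without Control replicate 4. The cluster held 7 of the 60 miRNA, of which 4 were tested. The other tested strands were miR-3958-3p, at 564 ± 129 normalized counts in Control goats (SD, n = 4) against 428 ± 109 in FD goats (SD, n = 6) with a log2 fold change of -0.42 (adjusted p = 0.391), and miR-3955-5p, at 28.7 ± 14.2 and 25.0 ± 9.32 with -0.18. All 4 log2 fold changes were below 0, with a median of -0.30, beside 245 of 490 below 0 (50%) among all tested, and none had an unadjusted p under 0.05. Without Control replicate 1 the value of miR-3955-5p was 0.17. Without Control replicate 4 those of miR-3958-3p and miR-3959-3p were -0.60 and -0.59, with unadjusted p of 0.0176 and 0.0412 from edgeR. At the other end of the values with 1 library left out, they were -0.30 for miR-3958-3p and -0.35 for miR-3959-3p. With all libraries the unadjusted p from edgeR were 0.0799 and 0.0855. With 1 library left out, the adjusted p from edgeR ran from 0.184 to 0.616 for miR-3958-3p and from 0.231 to 0.611 for miR-3959-3p.

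**Figure D5:**
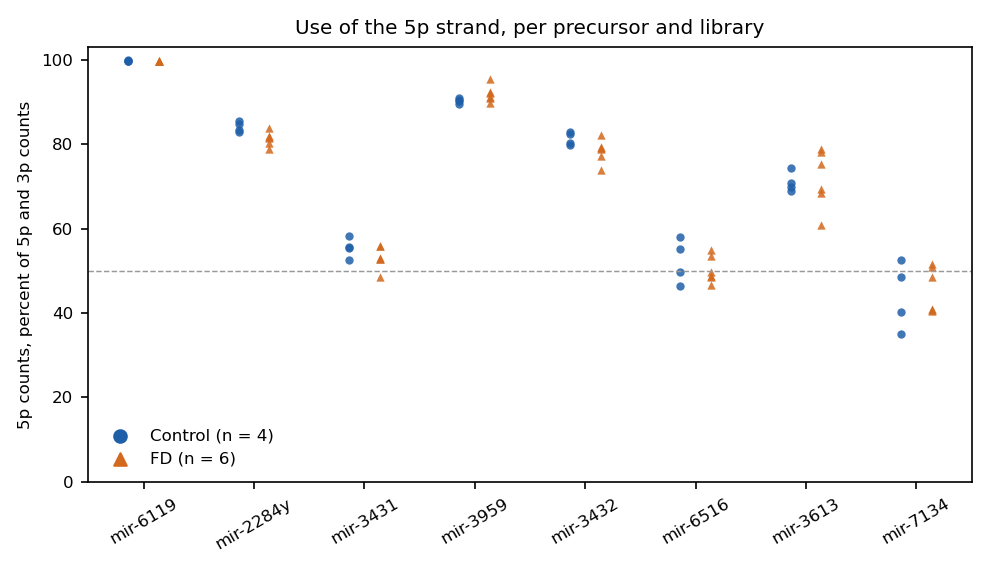
Counts of the 5p strand as a percent of the 5p and 3p counts (vertical axis, from 0 to 100), per library, for the 8 precursors of high-numbered miRNA whose strands were both tested; circles are Control and triangles FD libraries, and the dashed line marks 50%. mir-6119 lies above 99%, mir-3431 and mir-6516 lie around 50% and mir-7134 lies around or below it, and the diets overlap for every precursor.

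In 4 more precursors the named strand was paired with a predicted one, and mir-2284y was among them. Its 5p strand made up 84.0% ± 1.23 of the counts in Control goats (SD, n = 4) against 81.3% ± 1.71 in FD goats (SD, n = 6), with values from 78.7% to 85.4%. This sets all miR-2284y reads, which match 4 hairpins, against chr10_15053-3p alone and so is not the share of 1 locus. For this share and for that of mir-3432, 5 FD libraries of 6 lay below all Control libraries. Such a lean of at least 5 FD libraries to one side was seen in 3 of the 8 precursors (mir-2284y, mir-3432 and mir-3959), and in 11 of all 114 precursors with both strands tested (9.6%), and no test was run on it. Without mir-2284y, 2 remain. For mir-7134, a pig name, the 5p strand made up 44.1% ± 7.88 and 45.5% ± 5.38, and for mir-3613 70.9% ± 2.35 and 71.9% ± 6.89. The strands of mir-7134 had the log2 fold changes 0.36 for miR-7134-5p (SE 0.174, adjusted p = 0.330) and 0.27 for chr5_7621-3p (SE 0.201, adjusted p = 0.471) in edgeR's test.

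The remaining tested miRNA covered a wide range of levels. miR-4334-3p, a pig name, varied least among FD libraries of the 5 most abundant, with normalized counts of 1121, 1279, 1280 and 996 in Control and 1168, 1032, 1086, 1130, 1179 and 1108 in FD libraries. All FD values lay within the Control range, and the log2 fold change was -0.08 (SE 0.131, adjusted p = 0.759 in edgeR's test). It was placed on a hairpin at CHIR_1.0 chr7:13675531-13675586, minus strand, with a score of 1.5 and 0 reads of the other strand. The prediction did not mark the randfold p-value of this hairpin, a check on the stability of its fold, as significant.

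miR-2483-5p, from a precursor within TENM1 (a teneurin, a cell surface protein) on chromosome X of ARS1.2, passed the filter through FD libraries alone and had the highest log2 fold change of the 27, 0.82 (SE 0.552, adjusted p = 0.457 from edgeR). With 1 library left out the value ran from 0.53 without Control replicate 2 to 1.49 without Control replicate 4. It was at 12.8 ± 10.2 normalized counts in Control goats (SD, n = 4) against 23.8 ± 12.9 in FD goats (SD, n = 6), and the values of the diets overlapped. Its 3p strand had 29 counts in all and was not tested. miR-2355-5p had a log2 fold change of 0.33 (0.15 without FD replicate 6), miR-6123 of 0.30, miR-2411-5p (within UBAP2L) of 0.21, miR-3613-5p of 0.06 and miR-6529-5p of 0.04. Their means were 43.1, 16.5, 19.7, 77.3 and 221 normalized counts, and the 95% confidence interval of each included 0.

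Of the 60 miRNA, 27 could be matched by name to 19 goat miRNA genes of ARS1.2, 18 of them placed on a chromosome. Another gene enclosed 13 of the 19, among them MIR3432 in HIP1, MIR2411 in UBAP2L, MIR2284D in DOCK1 and MIR2318 in MADD. The coordinates of that assembly were not used, since the counts were made on CHIR_1.0.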

How the data were processed

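The authors deposited counts, whole reads for each mature miRNA in each library. They had trimmed adapters, kept reads of 17 to 28 bases, aligned these to CHIR_1.0 and counted with miRDeep2. Reads with up to several matches were kept, so near-identical miRNA can share reads. The miRDeep2 score values and pooled read counts of predicted hairpins are also as deposited by the authors. The deposited normalized columns were not used. Normalized counts are counts divided by median-of-ratios size factors over all 1804 miRNA.

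Diets were compared over 490 miRNA with edgeR 4.0.16 (TMM, two-sided quasi-likelihood test without covariates). Calls were made at a Benjamini-Hochberg adjusted p under 0.1. The SE was obtained by dividing the absolute log2 fold change by √F. Alternatives were DESeq2 1.42.0, limma-voom (limma 3.58.1), 3 other scalings, 3 other filters, summing miR-2284 and miR-2285, and each library left out. The code was tested on simulated data.

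Every library's value is given for the 5 most abundant miRNA, those with an unadjusted p under 0.05 and those whose other strand was also a tested high-numbered miRNA. Other choices are named as such. The miRNA and the lists were chosen with earlier results of these data known. Each library is 1 goat. Reads were not corrected for amplification copies. Genes of ARS1.2 gave names and neighbours only.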

Additional observations from a re-analysis of the deposited data

Results flagged for a closer look

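In 58 groups of libraries examined for a value far from the rest of its diet (Dixon's gap test at 95%), 3 held one, and chance alone would give about 2.9. miR-2285f had 181 normalized counts in FD replicate 3, and the other FD libraries had 221 to 238. miR-2285k had 263 normalized counts in Control replicate 4, and the other Control libraries had 120 to 141. miR-3963 had 843 normalized counts in Control replicate 1, and the other Control libraries had 238 to 340.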

How the results depend on the processing

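The number of miRNA with an adjusted p under 0.1 was 0 of 490, 26 with DESeq2, 5 without a filter on low counts and 0 to 1 when a library was left out. Among the high-numbered miRNA it was 0, 1 with DESeq2 and 0 under every other alternative, library left out or not. The number with an unadjusted p under 0.05 was 2, 1 with limma-voom or with size factors, 4 with upper-quartile scaling, 5 without a filter (of 60 tested) and 1 to 6 when a library was left out (6 without Control replicate 4, 1 without Control replicate 1 or FD replicates 2, 4 or 5). The difference in share of counts, FD minus Control, was -0.0723 percentage points, -0.334 with the 10 most abundant miRNA left out of the total, and -0.0782 to -0.0646 with a library left out. Of 488 log2 fold changes of the 27 miRNA under alternatives, 473 kept their direction and their side of the threshold. The sign turned in 14, of 8 miRNA, each with an unadjusted p above 0.5 there. With upper-quartile scaling these were miR-6529-5p (-0.0372) and miR-3613-5p (-0.0209). The values with 1 library left out ran from -0.18 to 0.0124 for miR-3431-5p, -0.0585 to 0.17 for miR-3431-3p, -0.42 to 0.17 for miR-3955-5p, -0.11 to 0.12 for miR-6529-5p, -0.0412 to 0.18 for miR-3613-5p, -0.0325 to 0.41 for miR-2285k, -0.12 to 0.0160 for miR-2284ab and -0.0119 to 0.56 for miR-2411-5p. With 1 library left out, at least 1 value lay more than 1.5 times above or below the full value, or changed sign, for 22 of the 27. The 5 that stayed closer were miR-6119-5p, miR-3958-3p, miR-3959-3p, miR-6123 and miR-7134-5p. The cause of these changes was not tested. No paired analysis was possible because the labels give no replicate numbers (those printed here only name the libraries) and each goat received 1 diet. With at most 2 mismatches allowed, 158 predicted miRNA in place of 226 were close to miR-2284 or miR-2285. The filter on low counts left 33 of the 60 miRNA out, and 5 of the other 27 have intervals that reach beyond a 2-fold change.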
